A study of Mus musculus with 4 samples.

Results

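The iron genes described here are Trf, Lcn2, Tfrc, Slc11a1, Slc11a2, Fth1, Ftl1, Slc40a1, Cp and Hmox1, 10 rows of the 24043 in the deposited expression table. They were chosen by symbol, and all 10 were found. They were measured by RNA-seq in mammary tumor cells sorted from female MMTV-PyMT mice, in which a viral oncogene under a mammary tumor virus promoter drives tumors of the mammary epithelium. All 4 libraries came from cells sorted for YFP, a Rosa26-Stop-YFP reporter (R26Y) that is switched on by Cre recombination, 2 to 3 months after Ad-K8-Cre, an adenovirus with Cre under the promoter of Krt8, a keratin of luminal cells, was put into the milk ducts. The mice with conditional Lsd1 alleles (Lsd1L/L) gave 2 libraries titled knockout, and the Lsd1+/+ mice, given the same virus, gave 2 titled wild-type, the controls. The question is what loss of LSD1, a histone demethylase, changes in the RNA of these cells. The labels give no age, nor do they tie the libraries to different mice. The p-values therefore reflect the spread among these 4 libraries alone, which may be technical.

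Kdm1a, which encodes LSD1, was at 52.5 and 22.9 FPKM (reads scaled by transcript length and library total) in the controls. It was at 20.2 and 22.8 FPKM in the libraries titled knockout, whose tissue label also reads Lsd1+/+; they are therefore called knockout-labelled. Summed over 15 epithelial markers, the level was 12876 and 2856 FPKM in controls and 775 and 795 FPKM in the knockout-labelled libraries. None of the 15 was listed at 0 in any library. Over 13 macrophage markers the sums were 621 and 15509 against 1540 and 1425 FPKM, so the second control library stood apart. Lyz2 made up 38.3% and 59.1% of the macrophage sum in controls and 56.4% in each knockout-labelled library. Cd14 made up 31.4% and 7.17% against 27.7% and 27.2%, so this sum largely follows these markers. Against the first control library, Csf1r was higher in both knockout-labelled libraries, but C1qa was lower. Over 10 lymphocyte markers the sums were 14.8 and 61.9 against 1802 and 1701 FPKM, and over 9 neutrophil markers 277 and 556 against 1167 and 1257 FPKM. The YFP-sorted cells thus held epithelial transcripts in every library, but in unequal amounts. In bulk RNA, fewer cells of a type and less RNA per cell cannot be told apart. Sequencing depth was 1.03 and 0.85 in controls and 0.93 in the first knockout-labelled library, with the second set to 1.

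Iron travels in blood and milk bound to transferrin, enters cells through the transferrin receptor, is stored in ferritin shells of heavy and light chains, and leaves cells through ferroportin with the help of copper ferroxidases. Macrophages recycle iron from red cells, for which heme oxygenase opens the heme ring, and mammary epithelium secretes iron-binding proteins into milk. Iron-regulatory proteins bind hairpins called iron-responsive elements when iron is low. Bound in the leader of a transcript they block its translation, and bound in the tail of the transferrin receptor transcript they protect it from decay, so RNA levels of ferritin and of the receptor report on different steps.

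The letters of this hairpin were looked for in the members' transcripts, and the matches are shown since this control acts on RNA; a match describes the sequence and is not a measured site. The pattern was a C, 5 bases, the loop CAGTGN with a last base other than G, and 5 bases pairing with the first 5, G-T pairs included, on the transcript strand. It was found in 4 of the 10 genes, against 1.01% of the 21877 genes with a protein-coding transcript in GENCODE M21. The pattern follows the known hairpin, which ferritin and transferrin receptor transcripts carry, so this comparison is no test of enrichment. The matches are printed with the bulged C and the loop in capitals.
Fth1: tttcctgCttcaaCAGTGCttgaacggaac
Ftl1: tgtcttgCttcaaCAGTGTttgaacggaac
Slc40a1: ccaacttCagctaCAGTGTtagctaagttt
Tfrc, copy 1: taattatCggaagCAGTGCcttccataatt
Tfrc, copy 2: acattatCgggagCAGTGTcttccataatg
Tfrc, copy 3: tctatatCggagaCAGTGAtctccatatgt
Tfrc, copy 4: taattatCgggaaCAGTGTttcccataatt
In GRCm38, which is not the build of the expression table, the Fth1 match lies in the 5′ UTR, in exon 1, at chr19:9982731-9982760 on the plus strand. Those of Ftl1 (chr7:45459779-45459808, minus strand) and Slc40a1 (chr1:45925465-45925494, minus strand) also lie in the 5′ UTR, in exon 1. The 4 Tfrc matches lie in the 3′ UTR, in exon 19, between chr16:32631218-32631247 and chr16:32631709-32631738 on the plus strand. No match in the other 6 genes says only that these letters were not found in their transcripts.

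Of the 10 iron genes 1, the exporter Slc40a1, passed the test and fell in the knockout-labelled libraries, 0 rose and 9 did not pass (limma, Benjamini-Hochberg adjusted p under 0.05). Among the 11138 genes tested 16.5% passed, 6.99% by falling and 9.51% by rising. All 10 genes had at least 1 FPKM in at least 2 libraries and so were tested. In 6 of them, Trf, Lcn2, Ftl1, Slc40a1, Cp and Hmox1, both knockout-labelled libraries were below both controls, against 32.1% of all tested genes, and in 0 both were above, against 39.3%. The median difference of the 10 genes was -1.55 on the log2(FPKM + 1) scale, against 0.08 over all tested genes, and it was -0.83 without the second control library. The tests turned on which libraries were in the fit, for the iron genes as for all tested genes. Where a control library was left out, the lone control is assumed to vary like the close knockout-labelled pair. The correlation of that pair across genes was 0.98, against 0.85 for the controls.

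**Figure D1:**
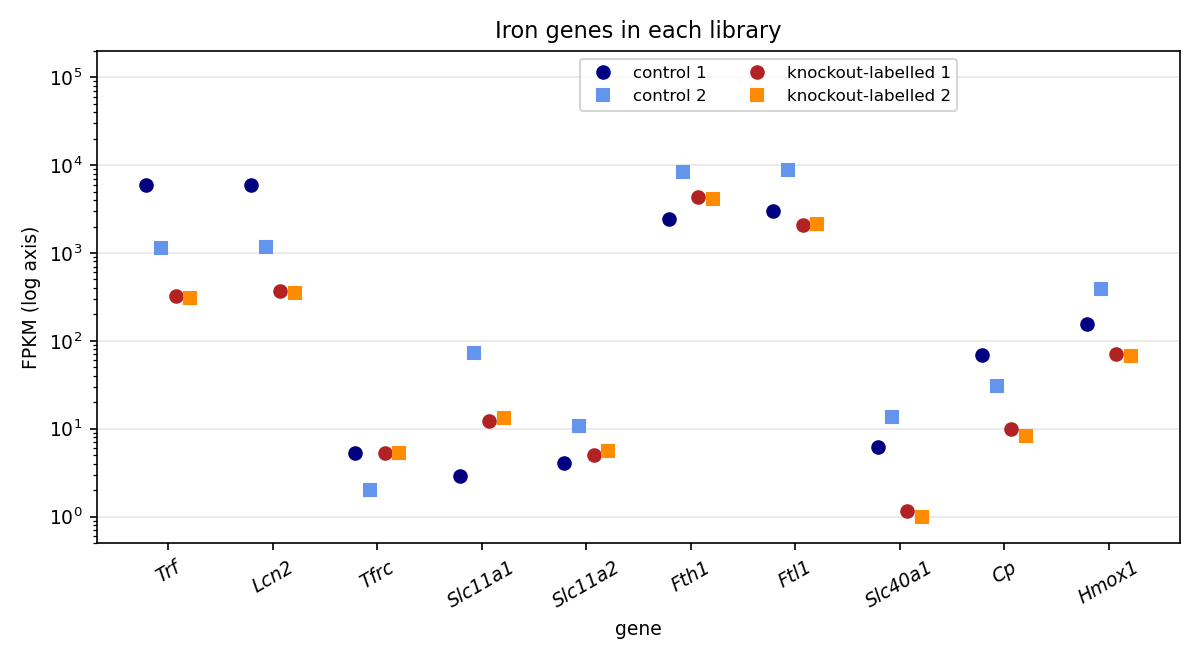
FPKM of the 10 iron genes (log axis) in each of the 4 libraries, with controls in blue and knockout-labelled libraries in red and orange. The knockout-labelled pair lies close together at each gene, whereas the control pair is apart by 5.25-fold at Trf and 25.0-fold at Slc11a1.

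The secreted iron binders had the highest levels of the 10 in the first control library. Trf encodes transferrin, the carrier of ferric iron. It was at 6009 and 1144 FPKM in the controls and at 327 and 308 FPKM in the knockout-labelled libraries. Both knockout-labelled libraries were below both controls, and the first control library stood far above the other 3. The difference was -3.04 on the log2(FPKM + 1) scale (SE 0.87, n = 2 and 2; limma, adjusted p = 0.087), and it did not pass. It was -1.85 without the first control library and -4.24 without the second.

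Lcn2 encodes lipocalin 2, which withholds iron from bacteria by binding their siderophores. It was at 5899 and 1166 FPKM in controls and at 369 and 352 FPKM in the knockout-labelled libraries, in the same order as Trf. The difference was -2.86 (SE 0.85, n = 2 and 2; limma, adjusted p = 0.093) and did not pass; it was -1.69 without the first control library and -4.03 without the second. The ratio of Trf to Lcn2 within a library was 1.02 and 0.98 in controls and 0.89 and 0.87 in the knockout-labelled libraries. That ratio spanned 1.17-fold over the 4 libraries, while Trf itself spanned 19.5-fold and Lcn2 16.7-fold. In the first control library Trf and Lcn2 made up 1.49% and 1.47% of the summed FPKM, against 0.0764% and 0.0875% in the second knockout-labelled library.

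Set against the epithelial marker sum, these secreted binders were nearly level. Trf was at 46.7% and 40.1% of that sum in the controls and at 42.2% and 38.7% in the knockout-labelled libraries. Lcn2 was at 45.8% and 40.8% in controls and at 47.6% and 44.3% in the knockout-labelled libraries. The shares overlapped between groups for Lcn2 and for Trf. Krt8 and Krt18, the keratins of luminal cells, each made up 32.5% to 36.1% of the epithelial sum in every library, so the sum largely follows them. Against each of the 15 epithelial markers alone, the ratio of Trf spanned less than 2-fold over the 4 libraries for 10 markers, with a median of 1.78-fold and a highest value of 5.92-fold. For Lcn2 it also did for 10 markers, with a median of 1.62-fold. Against the macrophage sum the share of Trf spanned 131-fold. Lcn2 is also a neutrophil granule gene. It was at 2129% and 210% of the neutrophil marker sum in controls and at 31.6% and 28.0% in the knockout-labelled libraries. The part of neutrophils in the level of Lcn2 was not tested.

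**Figure D2:**
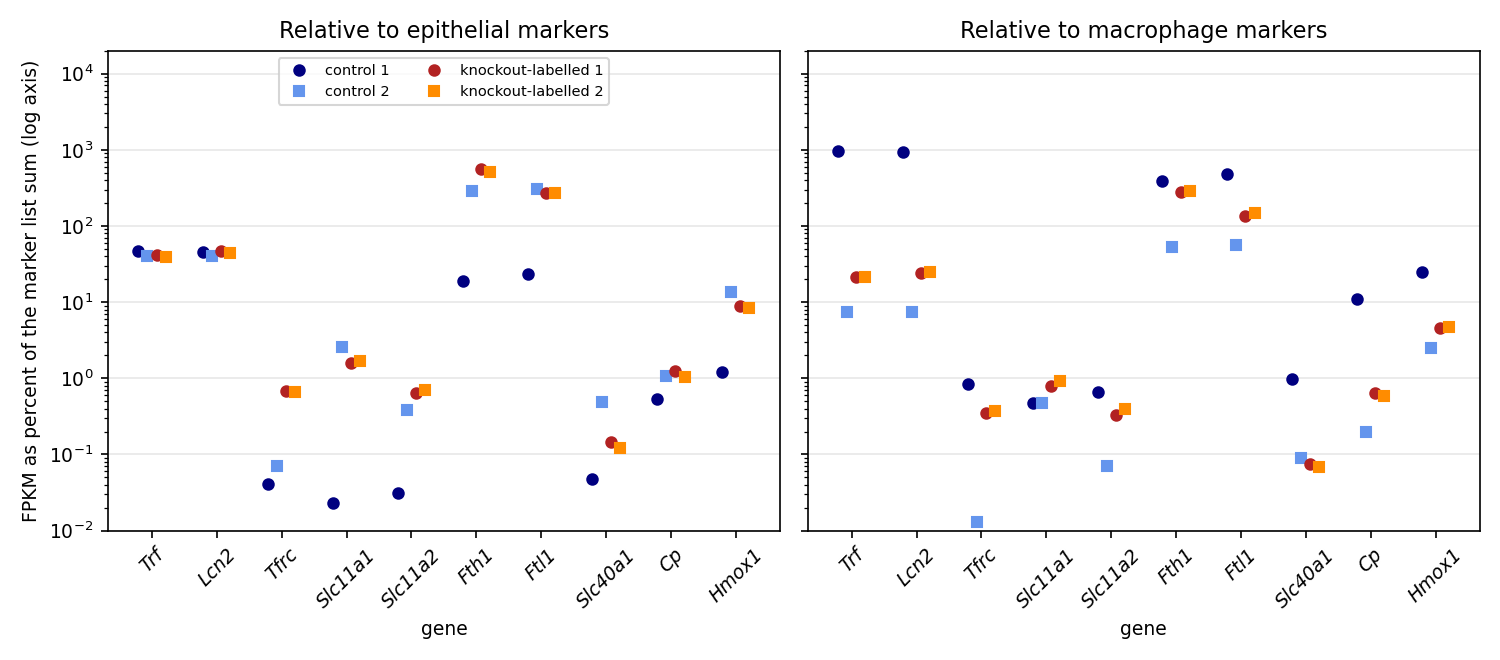
FPKM of each iron gene as a percent of the summed FPKM of the epithelial (left) and macrophage (right) marker lists in the same library, on a log axis. Trf and Lcn2 lie between 38.7% and 47.6% of the epithelial sum in all 4 libraries, and Slc11a1 between 0.472% and 0.931% of the macrophage sum.

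Among the importers, Tfrc encodes the transferrin receptor. It was at 5.27 and 2.02 FPKM in controls and at 5.32 and 5.26 FPKM in the knockout-labelled libraries. The first control library was level with both knockout-labelled libraries, and the second was the low one. The difference was 0.53 (SE 0.43, n = 2 and 2; limma, adjusted p = 0.41), and it was 0.01 without the second control library. With all 4 libraries and FPKM as deposited, Tfrc was the sole member with a positive difference. Dividing cells are known for high Tfrc. Summed over 8 proliferation markers the level was 63.2 and 87.4 FPKM in controls and 29.0 and 28.8 FPKM in the knockout-labelled libraries. Birc5 and Ube2c had the highest levels of the 8. Mki67, Top2a and Ccnb1 overlapped between the groups, and the others were lower in both knockout-labelled libraries. The part of cell division in the level of Tfrc was not tested.

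Slc11a1 and Slc11a2 are related transporters of divalent metals; Slc11a1 serves the phagosomes of macrophages and neutrophils, and Slc11a2 moves iron from endosomes and across the gut wall. Slc11a1 was at 2.93 and 73.2 FPKM in controls and at 12.2 and 13.3 FPKM in the knockout-labelled libraries. The groups overlapped, with the controls at both ends. The difference was -0.32 (SE 1.53, n = 2 and 2; limma, adjusted p = 0.90), and it turned to 1.80 without the second control library. Against the macrophage sum, Slc11a1 was at 0.472% and 0.472% in the controls and at 0.789% and 0.931% in the knockout-labelled libraries, so the 25.0-fold gap within controls was not seen in the share. On this share both knockout-labelled libraries were above both controls. Against the 13 single macrophage markers the ratio spanned from 1.21-fold to 17.8-fold, with a median of 4.38-fold. Both knockout-labelled libraries were above both controls for 10 of these markers and below for 1, Fcgr1, and the groups overlapped for 2. The neutrophil marker sum was higher in the knockout-labelled libraries, and its part in the result was not tested.

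Slc11a2 varied less. It was at 4.05 and 10.9 FPKM in controls and at 5.03 and 5.64 FPKM in the knockout-labelled libraries, again with the second control library highest and the groups overlapping. The difference was -0.29 (SE 0.49, n = 2 and 2; limma, adjusted p = 0.69), and it turned to 0.33 without the second control library. Of the epithelial sum Slc11a2 was 0.0315% and 0.38% in controls and 0.649% and 0.71% in the knockout-labelled libraries. Relative to the macrophage sum its groups overlapped.

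Fth1 and Ftl1 encode the ferritin chains: the heavy chain oxidizes iron as it enters the shell, and the light chain helps to form the mineral core. Fth1 was at 2432 and 8254 FPKM in controls and at 4288 and 4061 FPKM in the knockout-labelled libraries, and the groups overlapped. The difference was -0.10 (SE 0.64, n = 2 and 2; limma, adjusted p = 0.92); it turned to 0.78 without the second control library and to 0.86 after quantile normalization. Ftl1 was at 2983 and 8719 FPKM in controls and at 2099 and 2143 FPKM in the knockout-labelled libraries, where both were below both controls. The difference was -1.27 (SE 0.56, n = 2 and 2; limma, adjusted p = 0.18), and it was -0.49 without the second control library and -2.04 without the first. Of the epithelial sum Ftl1 was 23.2% and 305% in controls and 271% and 269% in the knockout-labelled libraries. Of the macrophage sum it was 480% and 56.2% against 136% and 150%, so its groups overlapped on each measure. Fth1 was the higher in the knockout-labelled libraries relative to the epithelial sum, at 18.9% and 289% against 553% and 511%. Relative to the macrophage sum its groups overlapped. Both ferritin genes have many processed copies in the genome, so reads can be split between copies and the levels are uncertain.

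The balance of the ferritin chains, in contrast to their levels, was alike within each group. The ratio of Fth1 to Ftl1 FPKM was 0.82 and 0.95 in the controls (0.88 ± 0.093, SD, n = 2) and 2.04 and 1.90 in the knockout-labelled libraries (1.97 ± 0.10, SD, n = 2). The groups did not overlap, although Fth1 and Ftl1 themselves differed 3.39-fold and 2.92-fold between the controls. The difference in the log2 ratio was 1.16, and an exact two-sided permutation test gave p = 0.33, the smallest that 2 libraries against 2 can give. A ratio within a library does not depend on the library total. The ferritin ratio, like the other ratios named here, was chosen after the values were seen. The ratios of Trf to Lcn2, of Slc40a1 to Tfrc and of Trf to Tfrc did not overlap between the groups either. That of Slc11a1 to Slc11a2 did overlap, so separation was not particular to the ferritin chains. Among the levels of all tested genes, both knockout-labelled libraries were below both controls for 32.1% and above for 39.3%. The lymphocyte and epithelial marker sums differ between the same groups, and their part in the ferritin ratio was not tested.

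**Figure D3:**
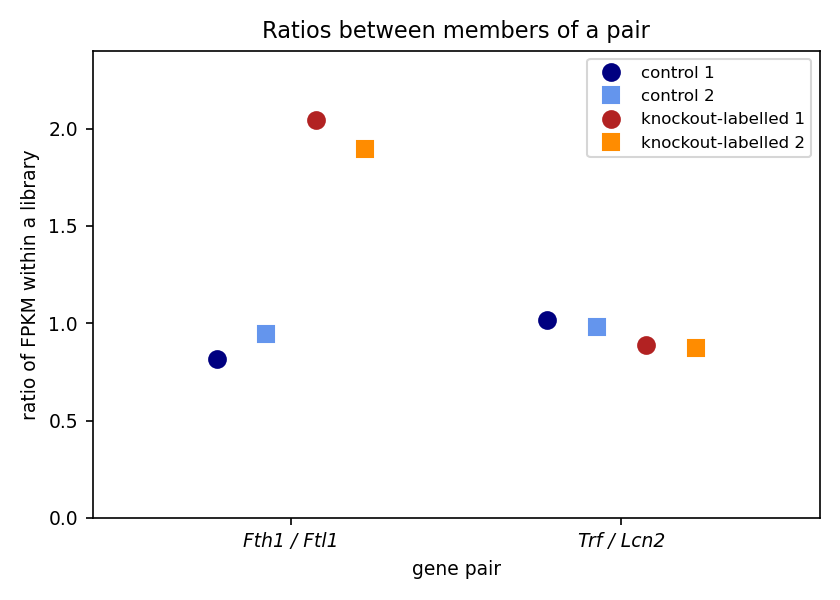
Ratio of FPKM within each library for the ferritin chains (Fth1 over Ftl1) and for the secreted binders (Trf over Lcn2), 1 point per library. The ferritin ratio is 0.82 and 0.95 in controls and 2.04 and 1.90 in the knockout-labelled libraries. The Trf to Lcn2 ratio lies between 0.87 and 1.02, and its groups do not overlap either.

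Slc40a1 encodes ferroportin, the exporter of iron from cells. It fell from 6.11 and 13.8 FPKM in controls to 1.14 and 0.98 FPKM in the knockout-labelled libraries, with no overlap. The difference was -2.31 (SE 0.43, n = 2 and 2; limma, adjusted p = 0.045), or a mean of 9.93 ± 5.40 FPKM against 1.06 ± 0.12 FPKM (SD, n = 2 each). The call ended with a pseudocount of 5 (adjusted p = 0.065), with no filter on low values (0.079) and with the replicate number as a block (limma, adjusted p = 0.059). It also ended without the first (limma, adjusted p = 0.40) or the second (0.40) knockout-labelled library, while the difference stayed between -1.79 and -2.84 when any 1 library was left out. Of the epithelial sum Slc40a1 was 0.0475% and 0.482% in controls and 0.148% and 0.123% in the knockout-labelled libraries, and of the macrophage sum 0.984% and 0.0887% against 0.0743% and 0.0685%. The groups thus overlapped relative to the epithelial sum and did not relative to the macrophage sum. Taken 1 marker at a time, they overlapped for 14 of the 15 epithelial markers and for 7 of the 13 macrophage markers, C1qa and Adgre1 among the latter, and both knockout-labelled libraries were the lower for the other 6, among them Csf1r and Lyz2. The lymphocyte marker sum was higher in the same libraries, and its part in the result was not tested.

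Cp encodes ceruloplasmin, a copper ferroxidase that loads exported iron onto transferrin. It was at 68.8 and 30.5 FPKM in controls and at 9.81 and 8.27 FPKM in the knockout-labelled libraries, with no overlap and the first control library highest, as for Trf and Lcn2. The difference was -2.23 (SE 0.46, n = 2 and 2; limma, adjusted p = 0.051), just short of the threshold. It passed with a filter at 5 FPKM (limma, adjusted p = 0.045) and after quantile normalization (0.048). Of the epithelial sum Cp was 0.535% and 1.07% in controls and 1.27% and 1.04% in the knockout-labelled libraries.

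Hmox1 encodes heme oxygenase 1, which frees iron from heme and is induced by heme and oxidative stress. It was at 155 and 392 FPKM in controls and at 70.0 and 67.4 FPKM in the knockout-labelled libraries, with no overlap and the second control library highest. The difference was -1.83 (SE 0.50, n = 2 and 2; limma, adjusted p = 0.081) and did not pass; it was -1.16 without the second control library and -2.50 without the first. Of the macrophage sum Hmox1 was 25.0% and 2.53% in controls and 4.54% and 4.73% in the knockout-labelled libraries.

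**Figure D4:**
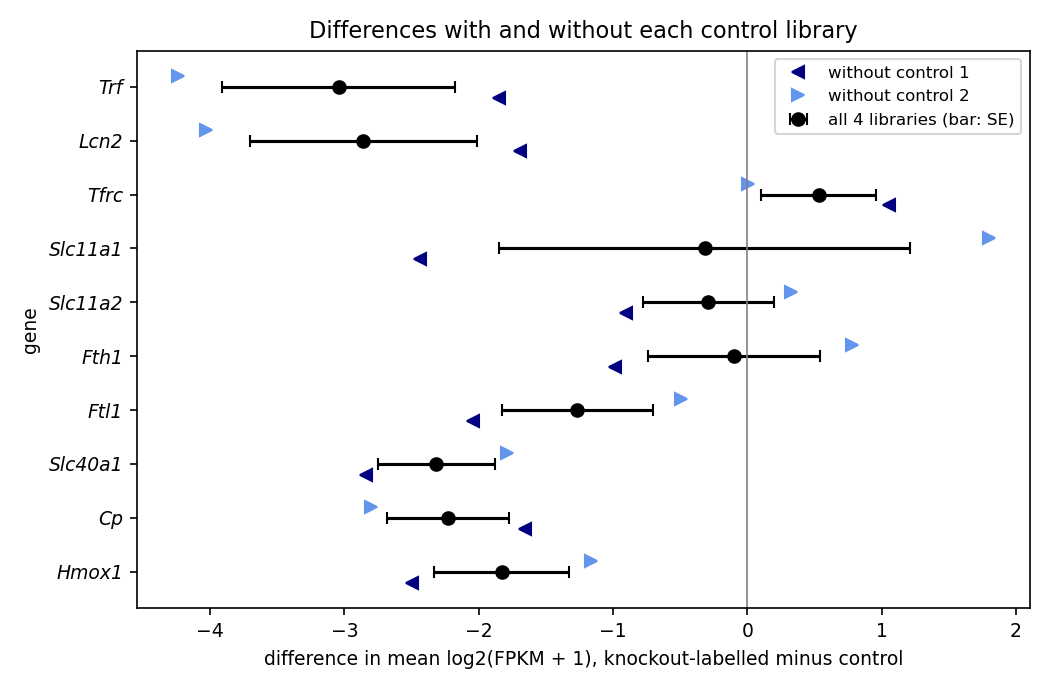
Difference in mean log2(FPKM + 1) between the knockout-labelled libraries and controls for each iron gene, with its SE (black) and with either control library left out (triangles). Slc11a1, Slc11a2 and Fth1 change sign with the library left out, whereas Trf, Lcn2, Slc40a1, Cp and Hmox1 stay below -1.

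The control pair split the members by which library was higher. Trf, Lcn2, Cp and Tfrc were higher in the first control library, by 1.05 to 2.39 on the log2(FPKM + 1) scale, as were the epithelial markers, whose median difference of the second minus the first was -1.87. Slc11a1, Fth1, Ftl1, Hmox1, Slc11a2 and Slc40a1 were higher in the second, by 1.05 to 4.24, as were the macrophage markers with a median of 4.51. Over all 4 libraries Tfrc did not follow the epithelial markers. Its share of the epithelial sum was 0.0409% and 0.0708% in controls and 0.687% and 0.661% in the knockout-labelled libraries. That share spanned 16.8-fold, while Tfrc itself spanned 2.63-fold. The epithelial sum was itself lower in the knockout-labelled libraries. Of the macrophage markers, Csf1r was at 4.81 and 157 FPKM and Cd68 at 22.3 and 359 FPKM in the controls. Endothelial and fibroblast markers were also higher in the second control library, with medians of 2.34 and 1.36. Erythroid markers were low in all libraries, with sums of 2.42 to 19.0 FPKM, and Slc4a1 was listed at 0 in each. Of 6 adipocyte markers Plin1 and Lep were listed at 0 in all libraries; Fabp4, which endothelial cells and macrophages also express, was at 70.3 and 374 against 19.1 and 23.8 FPKM.

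The genes whose pattern over the 4 libraries lay nearest to a member were taken by the distance between centred log2(FPKM + 1) values. For Trf the nearest was Krt8 (distance 0.10), followed by Plb1 (0.12) and Saa1 (0.16), with 27 tested genes within 0.5. For Lcn2 they were Dstn (0.10), Krt7 (0.15) and Plb1 (0.16), with 45 within 0.5, Trf among them. Slc11a1 lay nearest to Clec10a (0.04), Pld4 (0.21) and Wfdc17 (0.21), with 20 within 0.5. For Slc40a1, with 37 within 0.5, the nearest were Col18a1 (0.13), Timp2 (0.17) and Rapgef3 (0.17). For Hmox1, with 81, they were Crabp1 (0.11), Mmp14 (0.16) and Gna12 (0.17). Cp, with 176, lay nearest to Foxc1 (0.08), Ociad2 (0.09) and Scamp1 (0.12). Within 0.5 of Ftl1 lay 140 genes, led by Mfap5 (0.09), Cdkn3 (0.13) and Cpxm2 (0.13), and 180 of Fth1, led by Sod3 (0.09), Serping1 (0.11) and Ebi3 (0.13). Of Slc11a2 367 genes lay within 0.5, led by Ifnar2 (0.05), Il34 (0.05) and Mesdc1 (0.06), and of Tfrc 799, led by Ptcd3 (0.03), Slc9a3r1 (0.04) and Mtap (0.05). With 4 libraries such distances describe these samples and carry no test.

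Other genes of iron handling were read from a list of 37, of which 36 had a row and 26 were tested. Of these 5 fell, 0 rose and 21 did not pass, where 6.99% of all tested genes fell and 9.51% rose. Their median difference was -0.61, against 0.08 over all tested genes. Both knockout-labelled libraries were below both controls for 13 of the 26, against 32.1% of all tested genes, and above for 5, against 39.3%. The calls of all 5 genes that fell, Steap4, Mfi2, Slc22a17, Aco1 and Slc48a1, ended without either knockout-labelled library, with the replicate block and with no filter on low values. Their differences moved by at most 0.045 on the log2(FPKM + 1) scale when either knockout-labelled library was left out.

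Of 6 tested uptake genes 2 fell. Steap4, a metalloreductase, fell from 7.38 and 6.58 FPKM to 2.39 and 2.61 FPKM (limma, adjusted p = 0.042). Mfi2, which encodes melanotransferrin, an iron-binding relative of transferrin at the cell surface, fell from 4.50 and 2.75 FPKM to 0.48 and 0.46 FPKM (limma, adjusted p = 0.038). The endosomal ferrireductase Steap3 was at 2.19 and 4.04 against 0.48 and 0.74 FPKM (limma, adjusted p = 0.063). Timd2, a receptor for ferritin heavy chain in mice, was at 11.3 and 2.35 against 0.49 and 0.63 FPKM (limma, adjusted p = 0.12). As a share of the epithelial sum Timd2 spanned 1.40-fold, near the values for Trf and Lcn2. The zinc and iron importer Slc39a14 was at 5.96 and 4.42 against 3.09 and 2.72 FPKM (limma, adjusted p = 0.14).

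Among the genes of systemic control and sequestration 1 of 3 tested fell. Slc22a17, described as a cell surface receptor for lipocalin 2, fell from 15.2 and 9.58 FPKM to 1.78 and 1.76 FPKM (difference -2.24, SE 0.30; limma, adjusted p = 0.032). Ltf, which encodes lactoferrin, the transferrin relative of milk and neutrophil granules, was at 313 and 76.4 against 42.3 and 37.3 FPKM (limma, adjusted p = 0.14). Of the epithelial sum Ltf was 2.43% and 2.68% in controls and 5.46% and 4.69% in the knockout-labelled libraries. Of the neutrophil marker sum, which was higher in the knockout-labelled libraries, Ltf was 113% and 13.8% against 3.62% and 2.97%. The part of neutrophils in the level of Ltf was not tested. Hfe, the hemochromatosis gene, was at 3.89 and 30.3 against 2.26 and 3.35 FPKM (limma, adjusted p = 0.27). Hamp, the gene of the liver hormone hepcidin that degrades ferroportin, was at 2.68 FPKM in the second control library and listed at 0 in the other 3.

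Of 3 iron sensors 1 fell. Aco1, which encodes iron-regulatory protein 1, fell from 13.3 and 9.67 FPKM to 4.22 and 4.21 FPKM (limma, adjusted p = 0.0496), at the edge of the threshold. Ireb2, which encodes iron-regulatory protein 2, was at 2.01 and 1.81 against 2.44 and 1.78 FPKM (limma, adjusted p = 0.80). Fbxl5, the ligase subunit that removes that protein when iron is plentiful, was at 25.3 and 14.9 against 18.7 and 18.7 FPKM (limma, adjusted p = 0.91). In the ferritin handling group 0 of 3 passed. Ncoa4, the receptor that sends ferritin to lysosomes, was at 12.5 and 20.7 against 16.9 and 16.3 FPKM (limma, adjusted p = 0.93). The iron chaperones Pcbp1 and Pcbp2 differed by 0.38 (SE 0.23; limma, adjusted p = 0.29) and 0.45 (SE 0.20; limma, adjusted p = 0.19).

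Of 8 tested heme genes 1 fell. Slc48a1, a heme transporter of endosomes and lysosomes, fell from 16.5 and 19.9 FPKM to 7.76 and 7.95 FPKM (limma, adjusted p = 0.045). Alas1, the first enzyme of heme synthesis, was at 26.8 and 35.4 against 16.8 and 16.3 FPKM (limma, adjusted p = 0.075). The biliverdin reductase gene Blvrb was at 26.7 and 136 against 20.6 and 18.6 FPKM (limma, adjusted p = 0.24), with the second control library highest as for Hmox1. Hp, which encodes haptoglobin, the hemoglobin binder, was at 4.81 and 13.6 against 19.0 and 17.4 FPKM (limma, adjusted p = 0.21). The mitochondrial iron importers Slc25a37 and Slc25a28 had differences of 0.31 and 0.49 and did not pass. The call of Aco1 also ended with a pseudocount of 0.1 or 5, when rescaled to a common total and after median centring, and that of Steap4 when rescaled. The epithelial marker sum was lower in the same libraries. Relative to it Slc22a17 was at 0.118% and 0.336% in controls and at 0.23% and 0.222% in the knockout-labelled libraries, so its groups overlapped. Mfi2 overlapped likewise, at 0.0349% and 0.0963% against 0.0618% and 0.0583%. Aco1 was instead the higher in the knockout-labelled libraries on this measure, at 0.103% and 0.339% against 0.545% and 0.53%, and so were Slc48a1 and Steap4.

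**Figure D5:**
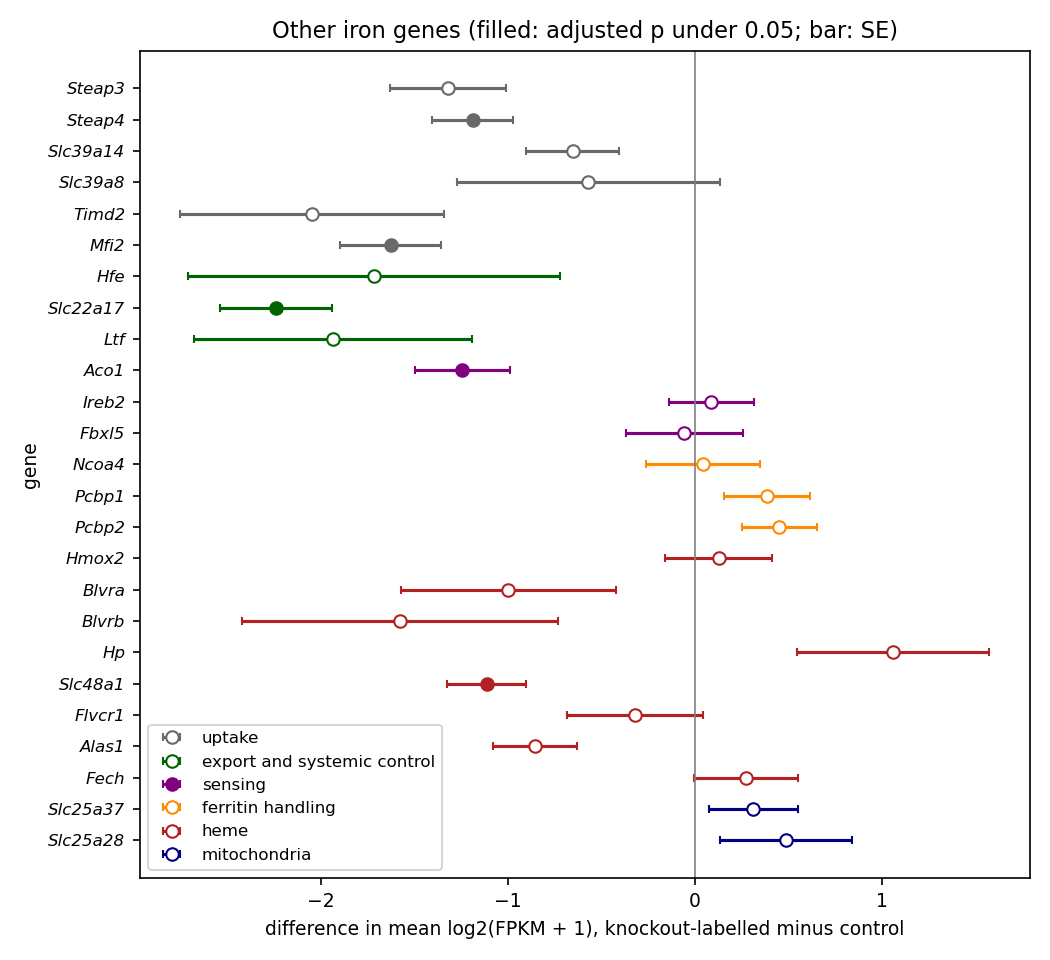
Difference in mean log2(FPKM + 1) between the knockout-labelled libraries and controls for 25 of the 26 other tested genes of iron handling, coloured by role, with the SE as bars. The 5 filled points (Steap4, Mfi2, Slc22a17, Aco1 and Slc48a1) passed the test, and all 5 lie below 0.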

How the data were processed

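Libraries were made with a low-input Clontech SMARTer kit, per the labels' protocols. The authors deposited 1 FPKM value per gene and library; the file header names no unit, and it was read from the values. Genome build mm9 is named in the submitters' processing notes; no label or header names the aligner, the quantifier or the gene models, which are thus not given in the sources. Groups came from the sample titles. Read totals are not given: relative depth came from low values (below 0.1 FPKM), where 50.4 to 60.4% of between-library ratios matched whole-read steps of up to 6 reads, within 0.2%.

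Of 24043 rows, 92 spike-in rows, all listed at 0, were left out. A gene entered the test if 2 or more libraries had 1 FPKM or more. The model was limma 3.58.1 (R 4.3.3) with a trended, robust prior, on log2(FPKM + 1), and Benjamini-Hochberg adjustment ran over all 11138 tested genes. This scale understates differences of genes near the pseudocount of 1. Permutation of 2 against 2 libraries cannot go below p = 0.33. In 13 alternatives, pseudocount, filter, scaling, prior, replicate block and libraries were varied.

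The members and lists were chosen with earlier results of these data known. The rule for named genes took all members, other iron genes past the threshold or of lowest p in their subgroup (mean of at least 1 FPKM), and the 3 nearest genes per member. Flvcr1, Flvcr2 and Adgre1 were matched through older symbols in RefSeq; Ftl2 is not analysed here. Some genes of the lists are not reported here.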

Additional observations from a re-analysis of the deposited data

How the results depend on the processing

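Of 11138 tested genes 1837 passed; 501 did with the replicate block, 2 with no filter on low values, and 0 to 7912 when 1 library was left out. The count was 0 without either knockout-labelled library (1385 and 1346 at an unadjusted p under 0.05), 7719 without the first control library and 7912 without the second. Of the 10 iron genes 1 passed; 0 did with a pseudocount of 5, with no filter and with the replicate block, 2 with a filter at 5 FPKM and after quantile normalization, and 0 to 10 when 1 library was left out. Their median difference of -1.55 lay between -0.83 and -1.77 when 1 library was left out. The log2 ratio of Fth1 to Ftl1 then lay between 1.06 and 1.27, and it was 1.62 after quantile normalization. Across scalings the direction turned for Fth1 (0.86 after quantile normalization), Fbxl5 (0.018 when rescaled to a common total), Ireb2 (-0.0067 after median centring) and Ncoa4 (-0.053 after median centring and -0.10 after quantile normalization). When 1 library was left out it turned for Fth1 (-0.98 to 0.78), Slc11a1 (-2.44 to 1.80), Slc11a2 (-0.91 to 0.33), Slc39a8 (-1.52 to 0.38), Fbxl5 (-0.42 to 0.30), Flvcr1 (-0.74 to 0.10), Ncoa4 (-0.30 to 0.38), Hmox2 (-0.14 to 0.39) and Ireb2 (-0.065 to 0.24). The cause was not tested. Replicate numbers are shared between the groups, but nothing in the labels pairs them, and same-numbered libraries did not deviate together across genes (correlation -0.062). The second control library had the lowest relative depth, 0.85, and no read totals are given, so no counting interval is printed.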
